A study of Mus musculus with 3 samples.

Results

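The miR-181 family of miRNAs was followed through small RNA libraries of mouse FAPs (fibro/adipogenic progenitors), stromal cells resident in muscle from which fibroblasts and fat cells can arise. Its 4 members are mmu-miR-181a-5p, mmu-miR-181b-5p, mmu-miR-181c-5p and mmu-miR-181d-5p (written below without the species prefix), taken by name from the 659 mature mouse miRNA names in the deposited table. Each had 1 row in that table. The 3 libraries came from wild-type (WT) mice and from primary FAPs used without culture. The normal library came from muscle without injury. The cardiotoxin library was taken 5 days after this snake venom component had been injected to kill fibres and start their regeneration. The denervated library was taken 3 weeks after sciatic denervation, by which a muscle loses its nerve supply and wastes. Strain, age, sex, the number of mice per library and the method of cell isolation are not stated in the labels.

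A miRNA guides the Argonaute protein to messenger RNAs that pair with its seed, the bases near its 5′ end, and lowers their output. miR-181 is best known from lymphocytes of mouse and human, where miR-181a tunes T cell receptor signalling by targeting phosphatases. In mouse myoblasts miR-181 targets the homeobox factor Hoxa11 during differentiation, and in human endothelial cells miR-181b restrains NF-kB signalling through an importin. Messenger RNAs were not measured in these libraries, so no target could be examined.

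The mature sequences show why the members are read as a family and where reads of one may be taken for another. They are given 5′ to 3′ from RefSeq (GRCm38.p6), with the seed (bases 2 to 8) in capitals.
miR-181a-5p: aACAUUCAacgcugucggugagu
miR-181b-5p: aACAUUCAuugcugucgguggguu
miR-181c-5p: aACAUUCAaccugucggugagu
miR-181d-5p: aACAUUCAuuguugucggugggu
All 4 carry the seed ACAUUCA, and no other of the 1679 mature names in the RefSeq table has it. The members differ behind the seed. miR-181a and miR-181c are 1 edit apart, since miR-181c is 22 bases long and miR-181a 23. miR-181b and miR-181d differ by the substitution C12U, counted from 1 at the 5′ end of miR-181b, and miR-181b is listed with a further base at the 3′ end. The deposited counts of miR-181b and miR-181d were fractions in all 3 libraries, and the rule by which reads were divided among rows is not stated.

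The members are made from 6 hairpins at 3 places in the genome (RefSeq and GENCODE annotation of GRCm38). Mir181a-1 (chromosome 1, 137966455 to 137966541, plus strand) and Mir181b-1 (137966639 to 137966718) lie 97 bases apart. Both lie in an intron of the non-coding gene Gm4258 and overlap an exon of the lincRNA A430106G13Rik on the same strand. Mir181a-2 (chromosome 2, 38852735 to 38852810, plus strand) and Mir181b-2 (38853830 to 38853918) lie 1019 bases apart, opposite an intron of Nr6a1, which encodes an orphan nuclear receptor. Mir181c (chromosome 8, 84178873 to 84178961, minus strand) and Mir181d (84178716 to 84178787) lie 85 bases apart in an intron of Nanos3, a germ cell gene, on its strand. miR-181a-5p and miR-181b-5p can therefore come from chromosome 1 or 2, whereas miR-181c-5p and miR-181d-5p come from chromosome 8.

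Total counts were 4471365 in normal, 3636249 in cardiotoxin and 7193088 in denervated. With 1 library per condition no spread between animals could be estimated and no test between conditions was possible. The intervals in parentheses are 95% exact intervals of the counts. They cover counting error only: without molecular identifiers, reads do not stand for independent molecules. The labelled cell type was checked against marker miRNAs. The 8 leukocyte miRNAs on the list summed to 422 counts per 1000000 counts (CPM) in normal, 24009 in cardiotoxin and 762 in denervated, with miR-223-5p and miR-511-3p at 0 in normal and denervated. The 9 mesenchymal miRNAs with a row summed to 259782, 17413 and 254647 CPM, with miR-214-5p at 0 in cardiotoxin. The cardiotoxin library thus stood apart from its label, with leukocyte markers far above and mesenchymal markers far below the others. Every cardiotoxin value below comes with these marker levels, whose part in it was not tested. In bulk RNA, fewer cells of a type and less RNA per cell cannot be told apart.

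mmu-miR-181a-5p was the most abundant member in each library. Its level was 6782 CPM (6705 to 6858) in normal, 2879.6 (2825 to 2935) in cardiotoxin and 5106 (5054 to 5159) in denervated. It ranked 35th, 48th and 37th, respectively, among the mature mouse miRNAs of these libraries. mmu-miR-181b-5p was at 1469.6 CPM (1434 to 1506), 952 (921 to 985) and 1161 (1136 to 1186) in the same order. mmu-miR-181d-5p was at 762 CPM (737 to 788) in normal, 227 (212 to 243) in cardiotoxin and 527 (510.4 to 544) in denervated. mmu-miR-181c-5p was at 731 CPM (706 to 757), 179.6 (166 to 194) and 438 (423 to 454). On total counts every member was highest in normal and lowest in cardiotoxin. This order depends on the scaling: without miR-21a-5p in the totals, the log2 ratio of miR-181b-5p in cardiotoxin against normal was 0.46. The order of the members was the same in the 3 libraries, from miR-181a through miR-181b and miR-181d to miR-181c. In normal the intervals of miR-181c and miR-181d overlapped, so that these neighbours were not separated there beyond counting error.

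**Figure D1:**
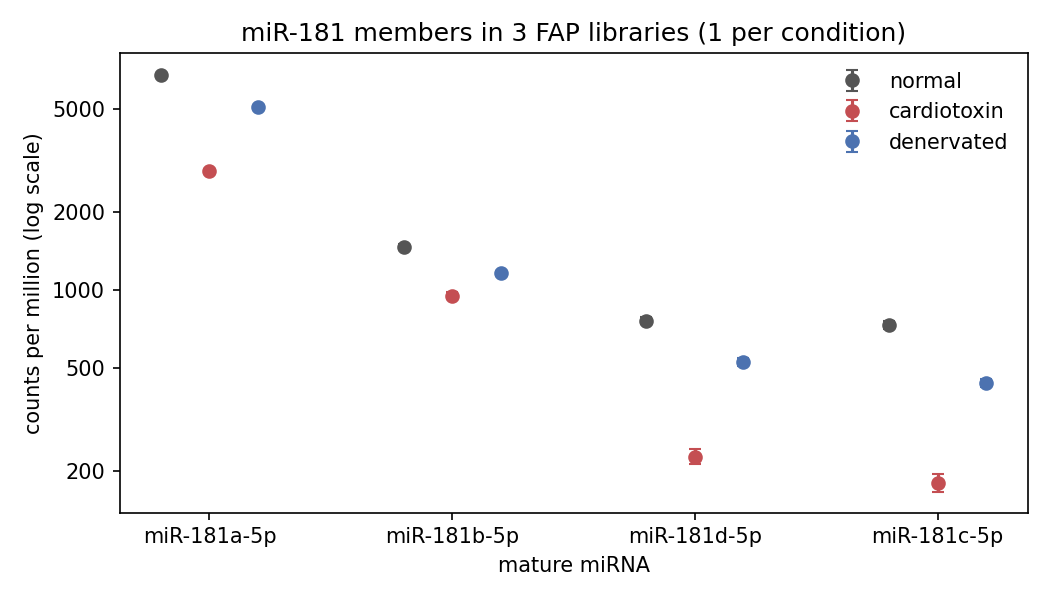
Level of each miR-181 member in CPM (log axis) in the normal, cardiotoxin and denervated libraries, 1 library per condition, with bars for the 95% counting interval. miR-181a-5p runs from 6782 CPM in normal to 2879.6 in cardiotoxin, and miR-181c-5p from 731 to 179.6.

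The first comparison asked how the family differed in FAPs of regenerating muscle. On the scale of total counts, the summed family was at 4238 CPM in cardiotoxin against 9745 in normal, which was 2.30-fold lower (2.26 to 2.34). The members were spread widely around this value. miR-181c-5p was 4.07-fold lower (3.74 to 4.43), miR-181d-5p 3.36-fold lower (3.11 to 3.63), miR-181a-5p 2.36-fold lower (2.30 to 2.41) and miR-181b-5p 1.54-fold lower (1.48 to 1.61). The 3 members past 2-fold stand beside 39.5% of the 446 items averaging 10 CPM or more that were at least 2-fold lower. Of these 446 items, 364 were mature mouse miRNAs. The others were further rows of the deposited table, such as rows named after other species. The median log2 ratio of the 4 members was -1.49, beside -0.09 for all items. The items were widely spread: 30.0% of them had a lower ratio than miR-181c-5p, 31.4% than miR-181d-5p, 37.0% than miR-181a-5p and 43.7% than miR-181b-5p.

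The size of these ratios depends on how the libraries are scaled, because miR-21a-5p, a miRNA induced in many injured tissues, held 53.9% of the counts in cardiotoxin and 2.14% in normal. Once miR-21a-5p was removed from the library totals, the median log2 ratio of all items moved from -0.09 to 0.97. The log2 ratios of the members then became -0.15 for miR-181a-5p, 0.46 for miR-181b-5p, -0.94 for miR-181c-5p and -0.66 for miR-181d-5p. All 4 lay below that median as before, which had to be so, since changed totals move all items nearly alike. In its own ratio miR-181b-5p turned above normal. None of the 4 reached 2-fold lower, beside 135 of the 446 items. With TMM factors the ratios lay further from normal, at -2.31 for miR-181c-5p and -0.91 for miR-181b-5p. The order of the members was the same under every scaling, since a scaling moves all of them alike.

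**Figure D2:**
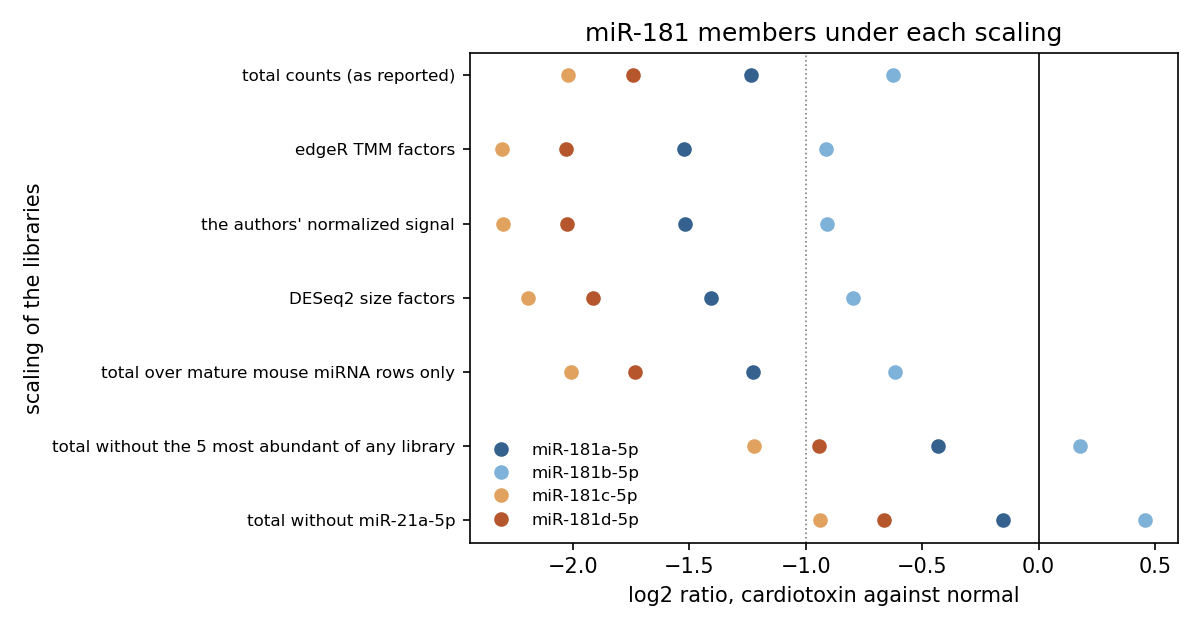
Log2 ratio of cardiotoxin against normal for each miR-181 member (points) under the total-count scaling and each alternative. The solid line marks equal levels and the dotted line 2-fold lower. miR-181b-5p is at -0.63 on total counts and at 0.46 without miR-21a-5p in the totals, while miR-181c-5p stays lowest throughout.

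Shares within the family need no scaling between libraries, and they set miR-181b apart from miR-181c and miR-181d. The fractional counts of miR-181b and miR-181d make their shares depend on the unstated rule that divided reads, which the intervals do not cover. miR-181b-5p made up 15.1% of the family counts (14.7 to 15.4) in normal, 16.0% (15.7 to 16.4) in denervated and 22.5% (21.8 to 23.1) in cardiotoxin. miR-181c-5p made up 7.50% (7.26 to 7.75) in normal, 6.06% (5.86 to 6.27) in denervated and 4.24% (3.92 to 4.57) in cardiotoxin. miR-181d-5p made up 7.82% (7.57 to 8.08), 7.29% (7.07 to 7.51) and 5.36% (5.00 to 5.72), in the same order. The chromosome 8 pair, miR-181c and miR-181d together, thus held 15.3% (15.0 to 15.7) of the family in normal, 13.3% (13.1 to 13.6) in denervated and 9.59% (9.13 to 10.1) in cardiotoxin. miR-181a-5p was close to the same share everywhere, with 69.6% (69.2 to 70.02) in normal, 70.6% (70.2 to 71.0) in denervated and 67.9% (67.2 to 68.7) in cardiotoxin. The cardiotoxin share of each member, miR-181a included, lay outside the counting intervals of both other libraries.

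**Figure D3:**
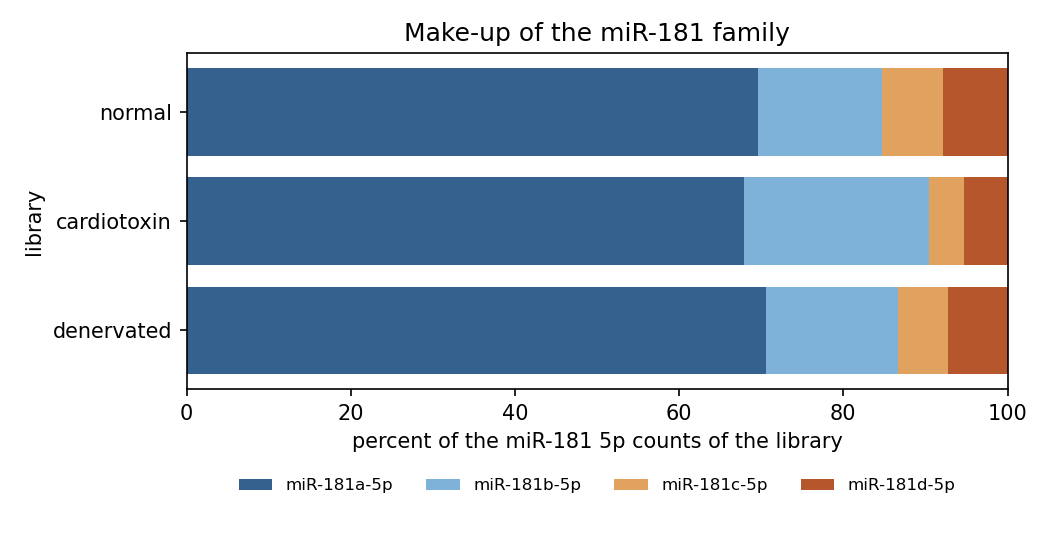
Share of each miR-181 member in the family's counts (percent) in each library. The miR-181b-5p segment is 22.5% in cardiotoxin against 15.1% in normal and 16.0% in denervated, and the miR-181c-5p and miR-181d-5p segments are narrowest in cardiotoxin.

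The second comparison asked how the family differed in FAPs of muscle without its nerve. The summed family was at 7232 CPM in denervated, 1.35-fold lower than normal (1.33 to 1.36). The members were closer together here, at 1.67-fold lower (1.59 to 1.75) for miR-181c-5p, 1.45-fold (1.38 to 1.52) for miR-181d-5p, 1.33-fold (1.31 to 1.35) for miR-181a-5p and 1.27-fold (1.23 to 1.31) for miR-181b-5p. None of the 4 reached 2-fold, beside 6.28% of all items that were at least 2-fold lower in this comparison. The median log2 ratio of the members was -0.47, against -0.09 for all items. The 4 log2 ratios stayed below 0 under all 8 alternatives, between -0.74 and -0.21. The authors' deposited table of 21 miRNAs, on a sheet that gives their normalized signal in normal and denervated, includes miR-181a-5p at 33705 in normal and 27383 in denervated and no other member. In the denervated library the muscle fibre miRNAs with a row summed to 3140.2 CPM against 897 in normal, and the endothelial miR-126a arms to 1659 against 5401. The part of these cell types in the miR-181 values was not tested. Both comparisons share the normal library.

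Set against each other, cardiotoxin was 1.71-fold lower than denervated in the summed family (1.68 to 1.74). miR-181c-5p was 2.44-fold lower (2.24 to 2.66) and miR-181d-5p 2.32-fold lower (2.15 to 2.51), whereas miR-181a-5p was 1.77-fold lower (1.74 to 1.81) and miR-181b-5p 1.22-fold lower (1.17 to 1.27). The 2 members past 2-fold stand beside 38.6% of all items that were at least 2-fold lower. Once miR-21a-5p was removed from the library totals, miR-181a-5p and miR-181b-5p turned above denervated, at log2 ratios of 0.13 and 0.67, and neither of the other two reached 2-fold. With TMM factors, DESeq2 factors or the authors' signal, miR-181a-5p also passed 2-fold, at -1.21, -1.13 and -1.22, which made 3 members. Items at least 2-fold lower numbered 135 of 446 without miR-21a-5p, and 191, 187 and 192 with these 3 scalings.

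The opposite arms of the hairpins, usually the less abundant strand, tell the places in the genome apart that the shared 5p sequences cannot. Of 6 such arms on the list, 5 had a row and 3 had a mean of at least 10 CPM. The sequences of these 3 are given with bases 2 to 8 in capitals, since they mark chromosome 1, 2 and 8 in turn.
miR-181a-1-3p: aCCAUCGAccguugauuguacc
miR-181a-2-3p: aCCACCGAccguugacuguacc
miR-181c-3p: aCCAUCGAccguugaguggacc
The chromosome 1 arm, miR-181a-1-3p, was at 136 CPM (125 to 147) in normal, 97.9 (88.0 to 109) in cardiotoxin and 105 (98.0 to 113) in denervated. The chromosome 2 arm, miR-181a-2-3p, was at 34.9 CPM (29.6 to 40.8), 16.2 (12.4 to 20.9) and 39.1 (34.6 to 43.9) in the same order. The chromosome 8 arm, miR-181c-3p, was at 84.5 CPM (76.2 to 93.5), 14.6 (10.9 to 19.1) and 62.3 (56.6 to 68.3).

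The 3 arms differed in how far cardiotoxin lay below normal. miR-181c-3p was 5.80-fold lower (4.34 to 7.89), miR-181a-2-3p 2.15-fold lower (1.58 to 2.95) and miR-181a-1-3p 1.39-fold lower (1.22 to 1.59). miR-181c thus had the lowest ratio among the 4 members and, by its other strand, among these 3 arms. With 3269 counts of the 5p arm and 378 of the 3p arm in normal, the 5p arm of miR-181c was 8.65 times (7.77 to 9.65) as frequent as the 3p arm, beside 12.3 times (9.30 to 16.6) in cardiotoxin and 7.04 times (6.37 to 7.79) in denervated. The cardiotoxin value rests on 53 counts of the 3p arm, and its interval overlapped that of normal. In denervated, miR-181c-3p was 1.36-fold lower than normal (1.18 to 1.56) and miR-181a-1-3p 1.29-fold lower (1.16 to 1.44). miR-181a-2-3p was at 1.12 times its normal level there, with an interval from 0.917 to 1.37 that includes equal levels.

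The balance between the 3p arms of the chromosome 1 and chromosome 2 copies of miR-181a also needs no scaling. Whether it follows the output of the copies themselves was not tested. miR-181a-1-3p made up 79.6% (76.5 to 82.4) of the counts of both miR-181a 3p arms in normal, 85.8% (82.0 to 89.0) in cardiotoxin and 73.0% (70.1 to 75.6) in denervated. The cardiotoxin and denervated libraries lay on either side of normal. The interval of denervated did not overlap those of normal and cardiotoxin, while those of normal and cardiotoxin overlapped slightly. The remaining arms were rare. miR-181b-1-3p had 18 counts in normal, 13 in denervated and 0 in cardiotoxin. miR-181d-3p had 18 counts in normal and 0 in both other libraries, where a floor of 3 counts would be 0.825 CPM (cardiotoxin) and 0.417 CPM (denervated). Against this floor, miR-181d-3p was at least 4.88-fold lower in cardiotoxin and at least 9.65-fold lower in denervated than in normal. Counting error allows smaller folds, as the 95% intervals of these ratios begin at 3.58-fold and 7.07-fold lower.

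**Figure D4:**
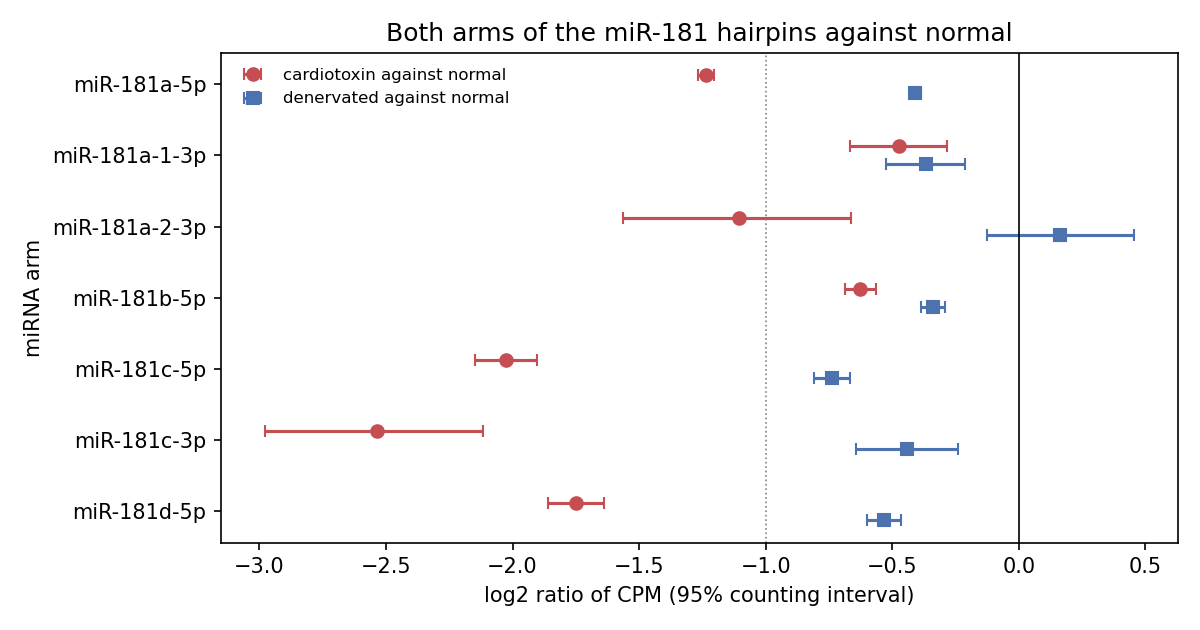
Log2 ratio of CPM against normal for the 5p members and the 3p arms with a mean of at least 10 CPM, in cardiotoxin (circles) and denervated (squares), with bars for the 95% counting interval. The solid line marks equal levels and the dotted line 2-fold lower. The miR-181c arms lie farthest to the left in cardiotoxin, at 4.07-fold and 5.80-fold lower, and miR-181a-1-3p at 1.39-fold lower.

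Longer forms of miR-181a and miR-181b were higher, not lower, in the cardiotoxin library. The deposited table had 5 rows named after opossum whose sequence was that of the miR-181a-5p or miR-181b-5p row, 23 bases long, followed by 3 more bases at the 3′ end. The added bases were TTT or TAT behind miR-181a, and TTT, TGT or TAT behind miR-181b. The RefSeq sequence of miR-181b-5p has 24 bases, so the first T added to its deposited row is the last base of that sequence. In no row did all 3 added bases match the mouse hairpins, where at most the first 2 did. The 2 rows of miR-181a had equal counts within each library, as did the 3 rows of miR-181b. Whether reads were split among these rows or repeated is not stated, which bears on the sums but not on the ratios between libraries.

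The longer miR-181a rows summed to 184 counts in normal, 708 in cardiotoxin and 515 in denervated, or 41.2, 195 and 71.6 CPM. In cardiotoxin they were 4.73-fold higher than in normal (4.02 to 5.60), while miR-181a-5p itself was 2.36-fold lower. The longer miR-181b rows summed to 384, 993 and 891 counts, and were 3.18-fold higher in cardiotoxin (2.82 to 3.59). In denervated the longer rows were 1.74-fold higher than normal for miR-181a (1.47 to 2.07) and 1.44-fold higher for miR-181b (1.28 to 1.63). If reads were repeated among rows rather than split, these counting intervals are too narrow.

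Set against their own mouse row, which removes the scaling, the longer miR-181a rows held 0.607 counts per 100 counts of miR-181a-5p in normal (0.522 to 0.701), 1.40 in denervated (1.28 to 1.53) and 6.76 in cardiotoxin (6.26 to 7.30). For miR-181b the values were 5.84 per 100 (5.26 to 6.48), 10.7 (9.95 to 11.4) and 28.7 (26.7 to 30.8). If reads were repeated among rows, these values per 100 are too high, while their ratios between libraries stay the same. Both members followed the same order of libraries. The ratio was 11.1 times as high in cardiotoxin as in normal for miR-181a and 4.91 times for miR-181b. Of 17 other mouse miRNAs with longer rows of this kind, 10 had a larger ratio in cardiotoxin than in normal, with a median of 1.23 times, and 35.3% were at least 2-fold larger. miR-181a and miR-181b ranked 1 and 3 among the miRNAs ordered by this measure, with miR-30d-5p between them at 6.03 times, from 6 counts in normal. miR-186-5p, whose longer rows also ended in TTT or TAT, followed at 4.11 times. In denervated the ratio was 2.31 times that of normal for miR-181a and 1.83 times for miR-181b. Most of the 17 others were larger there too: 13 had a larger ratio than in normal, with a median of 1.42 times, and 5 were at least 2-fold larger. No longer rows were found for miR-181c or miR-181d.

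**Figure D5:**
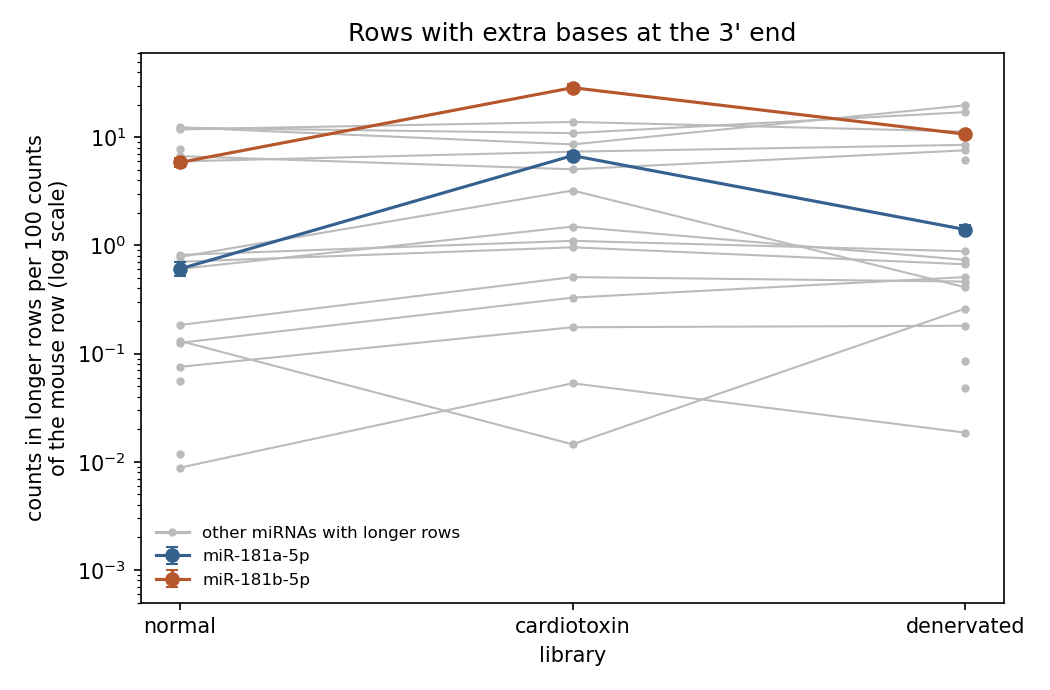
Counts in rows with extra 3′ bases per 100 counts of the mouse row (log axis) for miR-181a-5p, miR-181b-5p and 17 other miRNAs (grey), with lines joining the values of a miRNA across the libraries and values of 0 not drawn. Bars are 95% counting intervals. miR-181a-5p goes from 0.607 in normal to 6.76 in cardiotoxin and 1.40 in denervated, and miR-181b-5p from 5.84 to 28.7 and 10.7.

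Other miRNAs with ratios like those of the family were sought by the distance between the pair of log2 ratios against normal, over 3 libraries and 360 mature miRNAs that averaged 10 CPM or more. Nearest to the summed family were miR-345-5p (distance 0.10), miR-194-5p (0.11), miR-22-3p (0.12), let-7f-1-3p (0.15) and miR-1843b-3p (0.24). miR-22-3p, a member of the mesenchymal list, was at 28212 CPM in normal, 11317 in cardiotoxin and 21119 in denervated. Its log2 ratio of cardiotoxin against normal, -1.32, was the highest of that list, whose median was -6.45. The same miR-345-5p, miR-22-3p and miR-194-5p were nearest to miR-181a-5p. Nearest to miR-181b-5p were miR-23b-3p (0.156), miR-181a-1-3p (0.157) and miR-296-5p (0.161), so that an arm of the neighbouring hairpin on chromosome 1 was among its 3 closest. No miR-181 arm was among the 3 closest to miR-181a-5p, miR-181c-5p or miR-181d-5p.

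The chromosome 8 members had other neighbours. miR-181c-5p was closest to miR-145a-5p (0.17), followed by let-7a-1-3p (0.39) and miR-143-3p (0.40). miR-145a and miR-143 are miRNAs of smooth muscle cells and pericytes. miR-145a-5p was at 2737 CPM in normal, 599 in cardiotoxin and 1629 in denervated. miR-181d-5p was closest to miR-151-3p (0.11), miR-24-1-5p (0.18) and miR-192-5p (0.26). With 3 libraries, likeness of this kind describes these libraries only.

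The family was also set beside lists of miRNAs that share its known settings. Of 12 lymphoid and haematopoietic regulators, 10 were at least 2-fold higher in cardiotoxin than in normal and 2 lower, with a median log2 ratio of 3.05, against -1.49 for miR-181. Among all items, 32.3% were at least 2-fold higher in this comparison. miR-221-3p was at 10034 CPM against 2146 in normal. The lower ones were miR-125b-5p, at 664 against 58043, and miR-24-3p, at 4742 against 9568. Of the 9 kept NF-kB and inflammation miRNAs, 5 were higher and 2 lower in cardiotoxin (median 2.31). All 8 leukocyte miRNAs were higher (median 7.47). Of these, miR-223-5p and miR-511-3p passed the limit of 10 CPM only through cardiotoxin, so they could not have come out otherwise. All 9 mesenchymal ones were lower (median -6.45), beside 39.5% of all items. The log2 ratios of the miR-181 members ran from -2.02 to -0.63.

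Of 12 miRNAs linked to myogenic differentiation, 4 were higher and 3 lower in cardiotoxin (median -0.07), beside 32.3% of all items higher and 39.5% lower. Its most abundant members were miR-26a-5p, at 6964 CPM against 33919 in normal, and miR-27b-3p, at 34967 against 48711. The muscle fibre list had 2 of 4 kept members higher (median 0.53), against the same 32.3%, and both endothelial miR-126a arms were higher (median 1.80). In denervated against normal, the medians were 0.32 for myogenic differentiation, 0.27 for lymphoid and haematopoietic regulators, 0.69 for NF-kB and inflammation, 0.98 for leukocyte, 0.15 for mesenchymal, 1.68 for muscle fibre and -1.79 for endothelial, beside -0.47 for miR-181. The leukocyte median here is lowered by 2 miRNAs of that list, miR-511-3p and miR-223-5p. Neither had a count in normal or denervated, so the pseudocount alone set their log2 ratios to 0. The remaining leukocyte miRNAs ran from 0.02 for miR-342-3p to 2.85 for miR-142a-3p. The lists share members with each other, so their medians are not independent. The median of the 3 kept miR-181 3p arms was -1.06 in cardiotoxin and -0.36 in denervated, below 0 like that of the members.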

How the data were processed

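Per the labels' protocols, total RNA was made into libraries with a TruSeq kit for small RNA. The authors deposited an estimated count for every miRNA row, marked raw per the file headers, and a normalized signal, which is that count times 1 factor per library. The deposited chi-square p-value per row was left aside, as it sets reads and not animals against each other. The submitters' processing notes name StringTie without its role. Not given in the sources used here are the aligner, the miRBase release, the genome build and the rule behind fractional counts. The table came with 3 emptied lines, which were not analysed here.

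Rows were taken by the part of their name that precedes any suffix on end variants, and rows of a mature mouse name were summed, which left 1097 items. Counts were divided by the library total and expressed per 1000000 (CPM). Log2 ratios used a pseudocount of 1, folds none. Items were kept from a mean of 10 CPM (446), and 2-fold was the limit for higher or lower. Intervals are exact: Poisson for levels, binomial (Clopper-Pearson) for shares and, on rounded counts, for ratios between libraries or rows. A count of 0 was taken as 3 counts for a fold. Longer rows were those not named after mouse whose sequence began with that of a mature mouse row. They were compared where they held at least 50 counts over the 3 libraries and, beside miR-181, where the mouse row had counts in every library and longer rows had counts in normal, which left out 2 miRNAs. Alternatives were other totals, edgeR 4.0.16 TMM factors, DESeq2 1.42.0 size factors, the authors' signal and a pseudocount of 0.1. Named miRNAs were the members, all rows named 181, the 5 nearest to the summed family, the 3 nearest to each member and list examples. miR-30d-5p, miR-186-5p and marker miRNAs at 0 were named after their values were seen. The interval step was tested on simulated data. The members and lists were chosen with earlier results of these data known.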

Additional observations from a re-analysis of the deposited data

How the results depend on the processing

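No paired analysis was possible because each condition had 1 library. The summed family's log2 ratio of cardiotoxin against normal, -1.20 on total counts, was -1.49 with TMM factors, -1.48 with the authors' signal, -1.37 with DESeq2 factors, -1.07 with the longer rows added, -0.40 without the 5 most abundant miRNAs of any library in the totals (chosen after seeing the data) and -0.12 without miR-21a-5p. The members at least 2-fold lower were 3 on total counts, 1 without the 5 most abundant and 0 without miR-21a-5p. Of the 446 items, 176, 140 and 135 were at least 2-fold lower in the same order. For denervated against normal, -0.43 on total counts, the same alternatives gave -0.33, -0.32, -0.30, -0.41, -0.37 and -0.30. For cardiotoxin against denervated, -0.77 on total counts, they gave -1.16, -1.16, -1.07, -0.66, -0.031 and 0.19, the last above denervated. The 2 members at least 2-fold lower there became 0 in both reduced totals and 3 with TMM factors, DESeq2 factors and the authors' signal. Of the 446 items, 172 were lower there on total counts, 143 without the 5 most abundant and 135 without miR-21a-5p. With TMM factors, DESeq2 factors and the authors' signal, 191, 187 and 192 items were lower. The total over mature mouse rows and the pseudocount of 0.1 left the 3 family ratios within their counting intervals.

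With the longer rows added to their members, the share of miR-181a-5p was 69.1% in normal, 65.3% in cardiotoxin and 69.7% in denervated, and that of miR-181b-5p 15.8%, 26.0% and 17.3%. In cardiotoxin miR-181c-5p was then at 3.82% and miR-181d-5p at 4.82%. The cause of these differences is the added rows themselves. Should reads have been repeated among the longer rows, these shares and the family ratios with longer rows added count reads more than once. Items at least 2-fold lower in cardiotoxin than in normal numbered 176 at a mean of 10 CPM, 94 at 100 CPM and 360 with no filter, and those higher 144, 60 and 342. In denervated against normal they were 28, 12 and 128 lower and 28, 13 and 109 higher, and in cardiotoxin against denervated 172, 93 and 318 lower and 150, 60 and 340 higher. Depth limits the 3p arms most, since miR-181c-3p and miR-181a-2-3p had 53 and 59 counts in cardiotoxin.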
